A study of Mus musculus with 24 samples.

Results

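Mouse retinal organoids (MROs) are pieces of retina-like tissue that embryonic stem cells form in a dish. The 6 MROs collected on day 25 of differentiation (D25) were compared with the 6 MROs collected on day 22 (D22), which are 12 of the 24 RNA sequencing libraries of the series, chosen by the day in their titles. The other 12 libraries, 6 each from D20 and D30, entered the shared estimate of spread and were used only to place the D22 to D25 step within the time course. All 12 organoids were controls made from the wildtype E14TG2a embryonic stem cell line with the trisection protocol, in which each growing organoid is cut into pieces. They were cultured with the synthetic retinoid EC23 for some days early in the protocol, and only water, the solvent, was added to them as a control. Each library holds the RNA of 1 whole organoid, and all came from 1 independent experiment, so that p-values measure the spread between organoids of this experiment and not between experiments. In RNA of whole organoids, fewer cells of a type and less RNA per cell cannot be told apart. The question addressed by this pair of days is which genes change while MROs pass from the end of retinal cell generation into maturation.

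In the mouse retina, progenitors produce ganglion cells, horizontal cells, amacrine cells and cones first, and rods, bipolar cells and Müller glia last. Newborn rods then assemble the phototransduction cascade, in which a G protein couples the visual pigment to a cyclic GMP phosphodiesterase whose activity closes cation channels of the outer segment, a ciliary stack of membrane discs. In parallel, ribbon synapses form at rod terminals and contact bipolar cells, while Notch signalling, which keeps progenitors and glial precursors undifferentiated, declines.

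Between 13.9 and 15.8 M reads per organoid were counted on a gene or assembled locus at D22, and between 14.5 and 18.1 M at D25 (mean difference 1.80 M, exact permutation test, two-sided, p = 0.0173, adjusted p = 0.0390 over 9 library properties). Reads outside every feature made up 42.9% at D22 and 40.4% at D25, and the 100 highest genes took 20.7% and 18.2% of the annotated counts. Both differences reached p = 0.00217 in the exact permutation test, the smallest value that 12 organoids allow (adjusted p = 0.00974). Normalised CPM are read counts scaled to a common library size after TMM normalisation, and 3 counts equal between 0.166 and 0.216 normalised CPM.

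The retinal identity given by the labels was checked on 12 markers of the neural retina, among them Crx, Otx2, Nrl, Rcvrn, Rax, Six3, Pax6 and Rlbp1. All 12 were measured on both days, with a summed level between 2370 and 2940 normalised CPM at D22 and between 2140 and 3050 at D25. Crx, a photoreceptor transcription factor, was between 724 and 1044 normalised CPM at D22 (median 877) and between 858 and 1096 at D25 (median 981). The ranges of both days overlapped for Crx and for the summed markers. Single markers did change between the days. Of the 12, 2 were called higher, among them Rcvrn, and 3 lower, namely Otx2, Six3 and Pax6. Pax6 had a log2 change of -0.60 (adjusted p = 0.0043 by the edgeR test used below). Without D25 organoids 1 and 6, 2 were higher and 0 lower.

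Among markers of other cell types, those of cerebral cortex neurons, mesenchyme and pigment epithelium were uneven. They differed more among the D25 than among the D22 organoids. The summed level of 10 markers of cerebral cortex neurons lay between 17.7 and 41.6 normalised CPM at D22 (median 30.6). On the earlier day D20 it had been between 34 and 276 (median 80.4), so that raised levels were already seen before D22. At D25 it was 406, 19.5, 103, 147, 57.2 and 221 normalised CPM in organoids 1 to 6. D25 organoids 1 and 6 were thus the highest, and organoid 2 lay within the range of the D22 organoids. Among these markers Neurod6 reached 197 normalised CPM in D25 organoid 1, while Emx1 and Tbr1 were among those at 0 in at least 1 D22 organoid. Of the 10 markers, 2 were called higher, and 0 without D25 organoids 1 and 6. Mesenchyme markers summed to at most 25.5 normalised CPM at D22 and to between 13.8 and 152 at D25, with organoid 4 highest, and 3 of 8 were called higher, a count that was 0 without D22 organoid 1. Pigment epithelium markers, led by Ttr and Dct, summed to between 96.4 and 335 normalised CPM at D22 and to between 84.2 and 680.0 at D25, again with organoid 4 highest at D25, and their defining members Rpe65 and Best1 were too low to be tested. None of 9 microglia and leukocyte markers and none of 10 lens markers passed the filter on low counts, with sums of at most 0.794 and 2.60 normalised CPM at D25. Endothelium markers summed to between 224 and 272 normalised CPM at D22 and to between 166 and 243 at D25. Skeletal muscle markers summed to between 42.8 and 64.7 normalised CPM at D22 and to between 22.9 and 31.6 at D25, without overlap. Of the tested members, 1 of 3 and 1 of 5 were called lower. The part of these markers of other cell types in the results was not tested. The main counts are also given without D25 organoids 1 and 6.

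**Figure D1:**
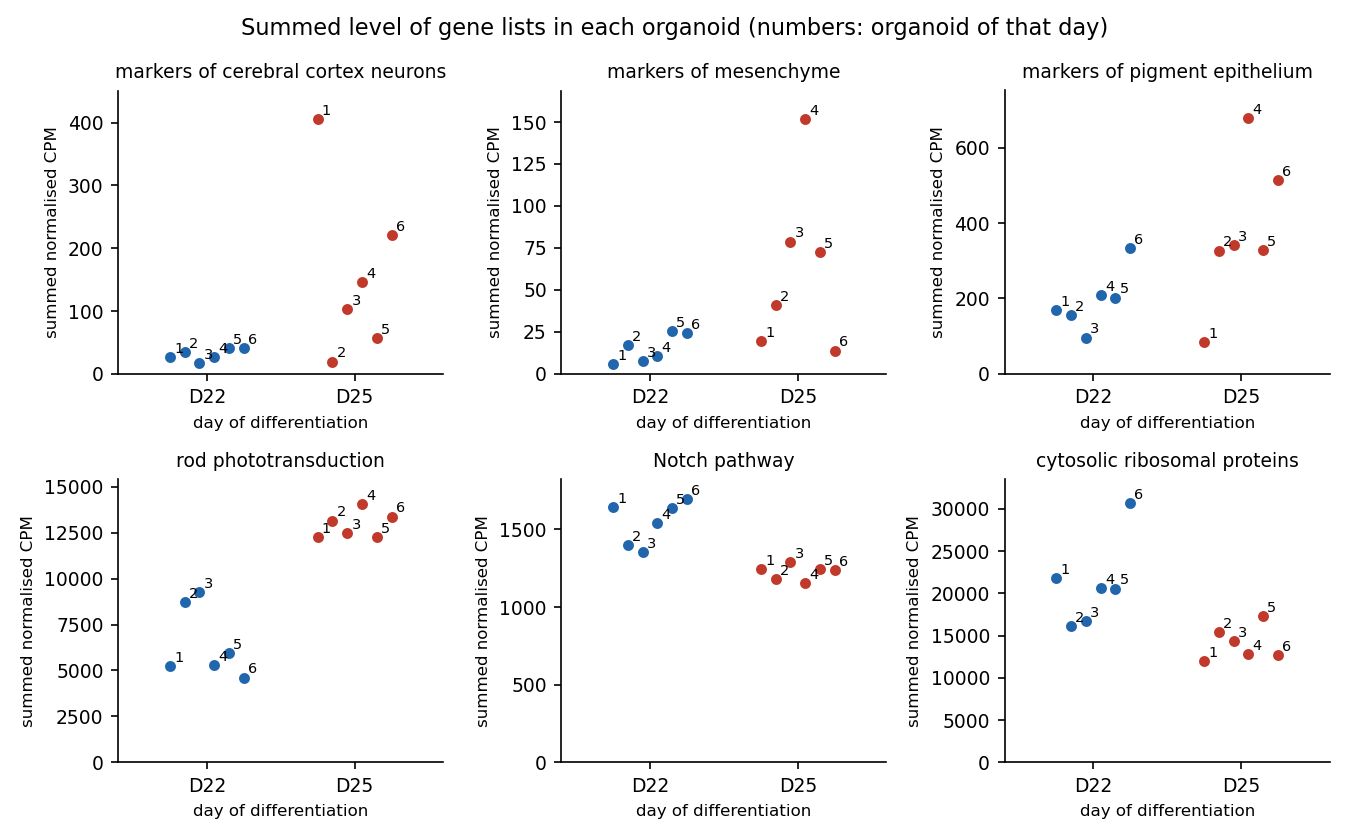
Summed normalised CPM of 6 gene lists in each organoid, with 1 point per organoid numbered within its day, D22 in blue and D25 in red. The cortex neuron markers spread from 19.5 to 406 among the D25 organoids, whereas the rod phototransduction sum of every D25 organoid lay above that of every D22 organoid.

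Of 16253 annotated genes with enough counts to be tested, 1191 (7.33%) were higher and 474 (2.92%) lower at D25 than at D22, by edgeR's quasi-likelihood test at an adjusted p below 0.01. The counts of called members in the gene lists below are to be read against these shares. The called genes rose by a median of 0.881 on the log2 scale and fell by a median of 0.715. At least 2-fold changes were found for 527 of the genes that rose and 121 of those that fell, and at least 4-fold changes for 196 and 16. The 6 D25 organoids did not overlap with the 6 D22 organoids for 802 of the genes that rose and 271 of those that fell, beside 1604 (9.87%) of all tested genes. The split between rises and falls depended on the scaling. The median change of all tested annotated genes was 0.0963 on the log2 scale, and that of the loci assembled by the authors outside the annotation was -0.168. When annotated genes alone entered the normalisation and test, the median change was 0.00686, with 1025 (6.29%) higher and 970 (5.96%) lower of 16284 genes, so that 51.4% of the calls were rises in place of 71.5%. In both fits, 1015 genes were called higher and 474 lower, and 0 genes were called in opposite directions. Without D25 organoids 1 and 6, 613 (3.77%) were higher and 167 (1.03%) lower of 16256 genes, in a fit of 4 against 6 organoids. Among the called rises, D25 organoid 2 lay above every D22 organoid for 1005 genes, and D25 organoid 1 for 1088. Over all 16253 tested genes these counts were 3866 and 4775. The rises were called with the same organoids, so that high counts among them follow from the selection. D25 organoid 2 was the lowest organoid of its day for 373 of the 1191 rises.

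**Figure D2:**
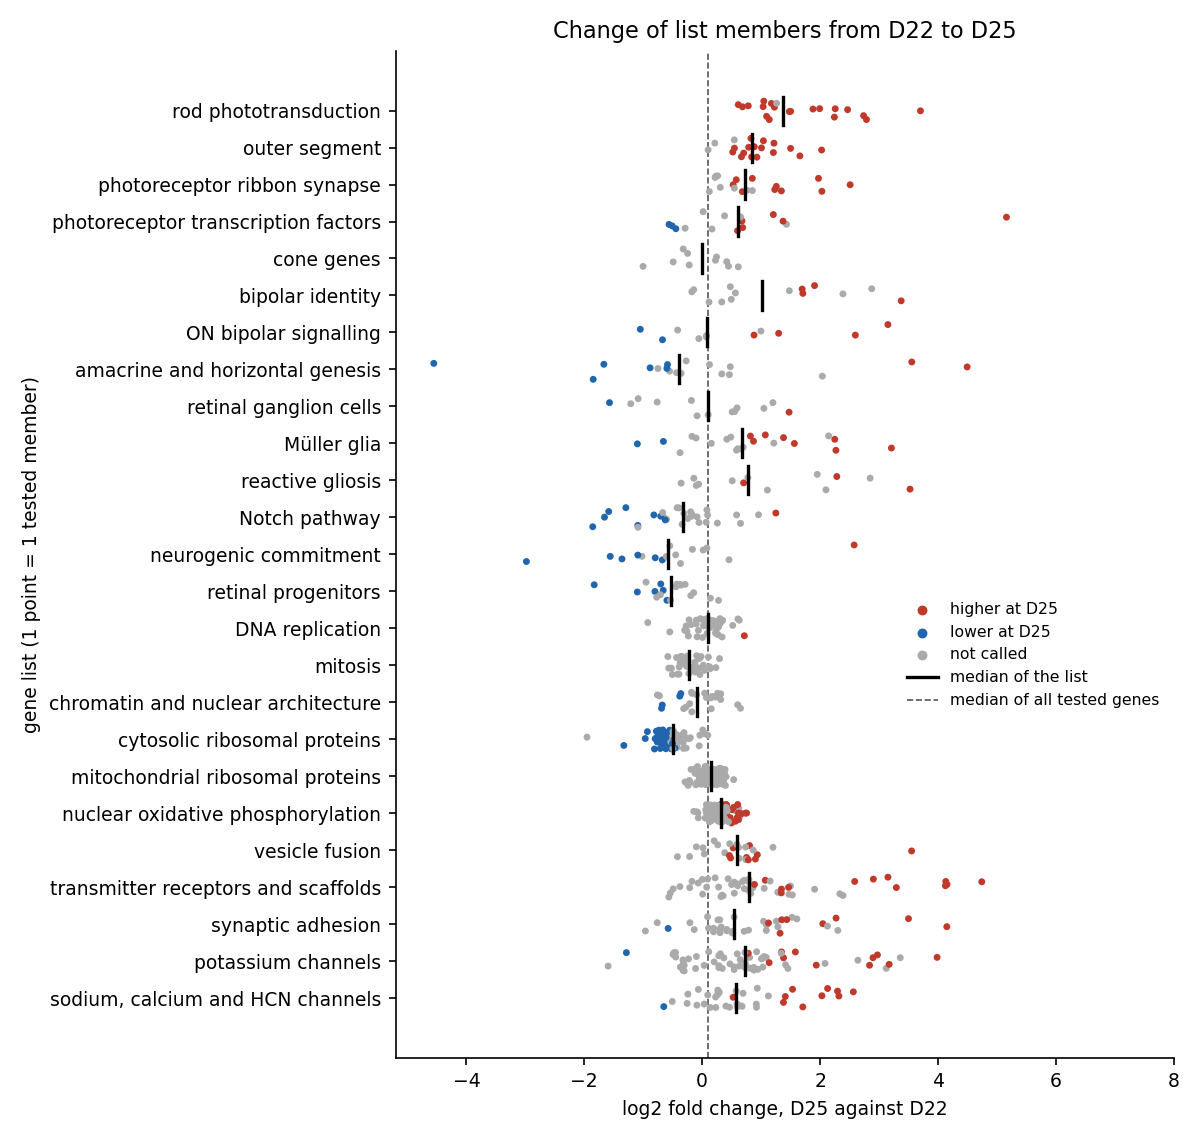
Log2 fold change from D22 to D25 of the tested members of 25 gene lists, with 1 point per gene, red where called higher, blue where called lower and grey where not called. Black bars mark the median of each list and the dashed line the median of all tested genes (0.0963). The points of rod phototransduction genes all lie to the right of 0, those of cytosolic ribosomal proteins nearly all to the left.

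Genes of rod phototransduction rose together. Of 20 tested members (of 21 listed), 19 were called higher and 0 lower, with a median log2 change of 1.37 beside the median of 0.10 over all genes, and 16 were called without D25 organoids 1 and 6. The summed level of the list was between 4620 and 9260 normalised CPM at D22, with organoids 2 and 3 highest, and between 12300 and 14100 at D25. Gnat1 (ENSMUSG00000034837, chr9:107674474-107679712, GRCm38), the alpha subunit of the rod G protein transducin, was between 0.0613 and 2.53 normalised CPM at D22 (median 0.450) and between 6.65 and 13.7 at D25 (median 8.31), a log2 change of 3.70 ± 0.38 (SE, adjusted p = 3.25e-07). Every D25 organoid exceeded every D22 organoid. Here and below, SE was derived from the test, as the size of the log2 change divided by the square root of its F statistic. Gnb1, the beta subunit of transducin, was already strongly expressed at D22 and was between 305 and 582 normalised CPM at D22 (median 369) and between 821 and 968 at D25 (median 895), a log2 change of 1.14 ± 0.12 (SE, adjusted p = 2.71e-07) without overlap between the days. Pde6a (ENSMUSG00000024575), a catalytic subunit of the rod phosphodiesterase, was between 2.01 and 7.77 normalised CPM at D22 (median 5.92) and between 27.7 and 51.7 at D25 (median 36.8). It rose by 2.79 ± 0.23 (SE, adjusted p = 2.54e-08), and the D25 organoids were all higher than the D22 organoids. Rcvrn (chr11:67695326-67703333), which encodes recoverin, a calcium sensor that restrains the kinase of the visual pigment, was between 13.9 and 51.2 normalised CPM at D22 (median 18.6) and between 151 and 209 at D25 (median 166), with a log2 change of 2.74 ± 0.27 (SE, adjusted p = 1.91e-07). Its level in D25 organoid 2, which lacked a raised cortex marker level, was 209 normalised CPM and the highest of its day. The one tested member that missed the threshold was Guca1a, a calcium sensor of the guanylate cyclase, with between 0.719 and 2.19 normalised CPM at D22 (median 1.46) and between 2.02 and 5.20 at D25 (median 3.08) (log2 change 1.26 ± 0.36 SE, adjusted p = 0.0204) and overlapping days.

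Promoter sequences are shown for 3 of these genes, since members of the list moved together and shared a sequence feature, and they were chosen for that feature after their values had been seen. Promoters from RefSeq (GRCm38.p6), from 250 bases before to 50 after the annotated start, were at hand for 14 of the 20 tested rod phototransduction genes. The letters TAATCC on either strand (GGATTA on the other), the core bound by CRX and OTX2, were found in 8 of the 14 (57.1%) and in 5 of 16 outer segment genes (31.2%). Over all tested genes with a promoter in the table the share was 7.14% (779 of 10909), and it was 9.18% for genes called higher and 6.23% for genes called lower. A match of letters is a description and does not show that a factor binds there. In the following promoters the matches are in capitals. They lie 58 and 25 bases upstream of the start in Cngb1 (a subunit of the rod channel, log2 change 2.26, adjusted p = 0.00017), 42 bases upstream in Gucy2e (a guanylate cyclase, 1.03, adjusted p = 1.17e-06) and 87 bases upstream in Sag (rod arrestin, 1.48, adjusted p = 0.000614).
Cngb1 (chr8:95306536-95306835, minus strand): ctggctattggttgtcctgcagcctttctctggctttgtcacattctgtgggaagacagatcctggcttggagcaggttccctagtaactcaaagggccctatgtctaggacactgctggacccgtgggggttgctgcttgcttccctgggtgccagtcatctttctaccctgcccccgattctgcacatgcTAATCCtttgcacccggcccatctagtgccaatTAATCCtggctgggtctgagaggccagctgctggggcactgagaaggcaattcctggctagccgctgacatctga
Gucy2e (chr11:69236973-69237272, minus strand): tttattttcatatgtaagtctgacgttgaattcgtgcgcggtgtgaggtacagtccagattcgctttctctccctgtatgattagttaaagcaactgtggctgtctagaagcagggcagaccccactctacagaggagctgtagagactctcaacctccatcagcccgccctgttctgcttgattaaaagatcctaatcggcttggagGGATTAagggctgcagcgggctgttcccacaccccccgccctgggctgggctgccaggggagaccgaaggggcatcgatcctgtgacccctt
Sag (chr1:87803430-87803729, plus strand): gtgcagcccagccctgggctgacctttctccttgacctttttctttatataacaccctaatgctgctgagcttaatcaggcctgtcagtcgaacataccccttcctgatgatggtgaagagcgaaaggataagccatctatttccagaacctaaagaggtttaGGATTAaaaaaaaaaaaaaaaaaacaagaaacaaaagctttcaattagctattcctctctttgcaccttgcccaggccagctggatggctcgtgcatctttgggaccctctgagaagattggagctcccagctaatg

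Genes for the outer segment and the rod synapse followed the same direction. Of 19 outer segment genes tested, 16 were higher and 0 lower (median log2 change 0.84), and 13 were higher without D25 organoids 1 and 6. Atp8a2, a flippase of outer segment membranes, was between 14.6 and 36.3 normalised CPM at D22 (median 24.1) and between 60.7 and 76.4 at D25 (median 73.7). Its log2 change was 1.5 ± 0.15 (SE, adjusted p = 2.24e-07), with no overlap between the days. Rdh12, a retinol dehydrogenase of photoreceptors, was between 38 and 131 normalised CPM at D22 (median 55.3) and between 194 and 256 at D25 (median 222) (log2 change 1.66 ± 0.23 SE, adjusted p = 2.40e-05). D22 organoids 2 and 3 were its highest at D22 and still lay below every D25 organoid. Fam161a, a protein of the connecting cilium, changed by 1.01 (adjusted p = 0.000135), and Abca4, the outer segment transporter of retinoids, by 0.67 (adjusted p = 0.000191). Tulp1, Tmem30a and Mak missed the threshold, with log2 changes of 0.54 (adjusted p = 0.0494), 0.21 (adjusted p = 0.129) and 0.10 (adjusted p = 0.658), and their days overlapped.

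Of 18 genes of the photoreceptor ribbon synapse, 10 were higher and 0 lower (median 0.72), with 7 higher without D25 organoids 1 and 6. Slc17a7, the glutamate transporter of synaptic vesicles, was between 39.1 and 78.2 normalised CPM at D22 (median 51.6) and between 114 and 165 at D25 (median 142), a log2 change of 1.34 ± 0.14 (SE, adjusted p = 6.38e-07) without overlap. Cabp4, a calcium-binding protein that tunes the presynaptic calcium channel, was between 0.274 and 8.17 normalised CPM at D22 (median 2.47) and between 17.4 and 27.2 at D25 (median 20.4) (log2 change 2.51 ± 0.38 SE, adjusted p = 5.64e-05). Cacna1f, the pore of that channel, was between 1.93 and 13.4 normalised CPM at D22 (median 5.10) and between 23.7 and 30.0 at D25 (median 26.0) (log2 change 2.03 ± 0.36 SE, adjusted p = 0.000354). The days were separate for both. Cplx4, a complexin of ribbon terminals, rose by 1.97 (adjusted p = 7.67e-05) and Lrit1, a synaptic adhesion protein of photoreceptors, by 1.23 (adjusted p = 4.47e-05). The scaffold Pclo, Unc13b and Dmd did not pass, with log2 changes of 0.31 (adjusted p = 0.0941), 0.23 (adjusted p = 0.0987) and 0.22 (adjusted p = 0.455). Cplx3 lay close to the threshold at 0.85 (adjusted p = 0.0104).

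Photoreceptor transcription factors were split, with 6 of 15 higher and 3 lower. Rises were found for the repressors Ankrd33 (5.85 to 18, median 7.18 normalised CPM at D22 and 20.7 to 29.6, median 24.2 at D25, log2 change 1.37 ± 0.24 SE, adjusted p = 0.000301) and Samd11, a nuclear protein of rods (41.4 to 118, median 66.3 and 144 to 215, median 171, 1.21 ± 0.24 SE, adjusted p = 0.0012). Neither showed overlap. The falls were Rorb, needed for rod fate, at 949 to 1087 (median 978) and 609 to 749 (median 713) (-0.51 ± 0.09 SE, adjusted p = 0.00027), Otx2, which specifies photoreceptors and bipolar cells (-0.45, adjusted p = 0.00462), and Prdm1, which favours photoreceptor over bipolar fate (-0.56, adjusted p = 0.0081). The Rorb and Otx2 levels of the days did not overlap, those of Prdm1 did. The log2 difference was 0.17 (adjusted p = 0.323) for Crx, 0.02 (adjusted p = 0.962) for Neurod1 and 0.65 (adjusted p = 0.0773) for Nr2e3, a repressor of cone genes, all with overlapping days. The largest change of the list, that of Mef2c, was uneven. Mef2c was between 3.04 and 8.78 normalised CPM at D22 (median 4.62) and between 6.90 and 628 at D25 (median 55.2) (log2 change 5.16 ± 0.95 SE, adjusted p = 0.00053). It was at 628 in D25 organoid 1, 363 in organoid 6 and 6.90 in organoid 2, so that the highest organoids and the lowest one were those of the cortex markers. Its mean was 17.4 normalised CPM at D20 and 5.24 at D22. Without D25 organoids 1 and 6, 3 members of the list were higher and 1 lower, and 3 were higher without D22 organoid 1 or with annotated genes alone in the fit.

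None of 10 cone genes was called by edgeR in either direction, and DESeq2 called 1 higher and 0 lower. At an unadjusted p below 0.05, 1 was higher and 2 lower, and the median log2 change was 0.003. Gngt2, the gamma subunit of cone transducin, was between 265 and 434 normalised CPM at D22 (median 351) and between 194 and 361 at D25 (median 287), with overlapping days. Pde6c, the cone phosphodiesterase, was between 27.8 and 42.0 normalised CPM at D22 (median 29.6) and between 18.2 and 25.7 at D25 (median 22.1), which did not overlap although the change of -0.49 ± 0.18 (SE, adjusted p = 0.0683) missed the threshold. Thrb, the thyroid hormone receptor that directs cone opsin choice, differed by 0.42 (adjusted p = 0.019), which missed the adjusted threshold of 0.01.

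**Figure D3:**
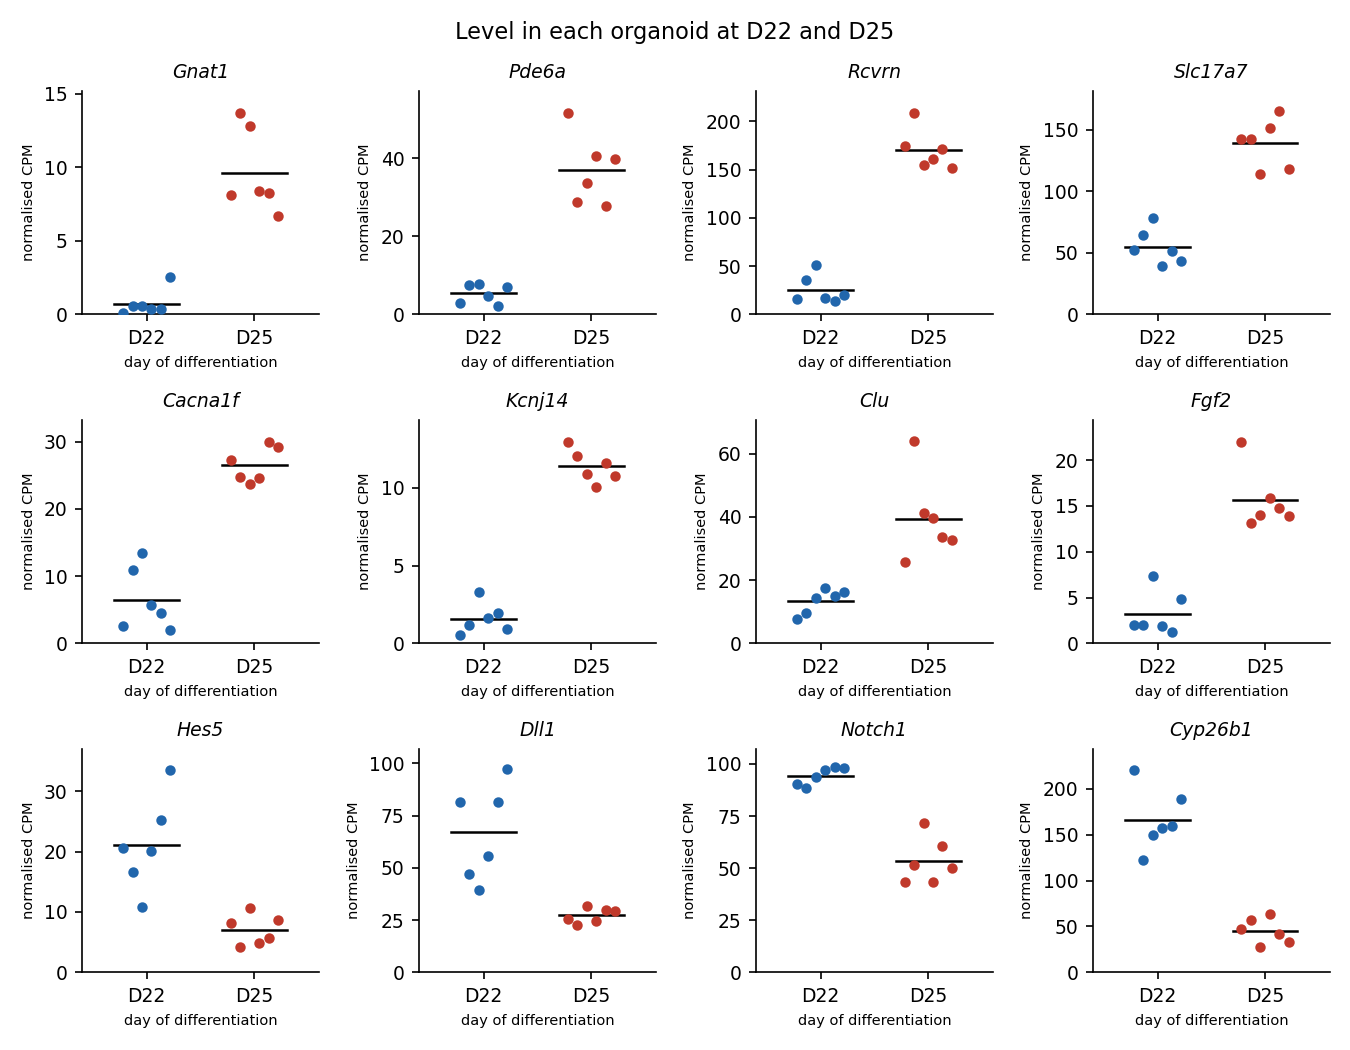
Normalised CPM of 12 genes in each organoid, with 1 point per organoid, D22 in blue and D25 in red, and a line at the mean. The rod and glial genes are higher and Hes5, Dll1, Notch1 and Cyp26b1 lower in every D25 organoid than in every D22 organoid.

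Among inner retinal neurons, bipolar cell genes rose in part, and part of the genes that start amacrine and horizontal cells fell. Of 14 genes of bipolar identity, 4 were higher and 0 lower (median 1.02), with 3 higher without D25 organoids 1 and 6. Cabp5, a calcium-binding protein of bipolar cells, was between 1.92 and 6.25 normalised CPM at D22 (median 3.32) and between 8.80 and 13.5 at D25 (median 12), and Prkcb, a protein kinase C, was between 3.96 and 11.4 normalised CPM at D22 (median 7.70) and between 21 and 52.5 at D25 (median 22.3). Neither overlapped, and the log2 changes were 1.70 ± 0.26 (SE, adjusted p = 6.85e-05) and 1.91 ± 0.35 (SE, adjusted p = 0.000481). Genes of ON bipolar signalling went both ways, with 4 of 11 higher and 2 lower, beside 7.33% and 2.92% of all tested genes. Prkca, a marker of rod bipolar cells, was between 22.6 and 48.4 normalised CPM at D22 (median 28.5) and between 63.5 and 91.1 at D25 (median 74.6) (log2 change 1.3 ± 0.14 SE, adjusted p = 4.76e-07), without overlap. Trpm1, a cation channel of ON bipolar cells, rose by 2.60 (adjusted p = 0.000992) from at most 4.45 normalised CPM. The Purkinje and bipolar cell protein Pcp2 fell by 1.05 on the log2 scale (69.0 to 118, median 101 normalised CPM at D22, 26.7 to 65.2, median 47.8 at D25, adjusted p = 0.00024), and Rgs11, a regulator of the ON bipolar G protein, changed by -0.67 (adjusted p = 0.0088). Without D25 organoids 1 and 6, 3 members of the ON bipolar list were higher and 1 lower.

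Of 18 factors of amacrine and horizontal cell genesis, 6 were lower and 2 higher. Foxn4, which opens this fate in progenitors, was between 8.44 and 17.2 normalised CPM at D22 (median 12.1) and between 1.22 and 6.84 at D25 (median 3.15) (log2 change -1.85 ± 0.28 SE, adjusted p = 7.20e-05), and every D25 organoid was below every D22 organoid. Onecut1, a horizontal cell factor, was between 4.75 and 17.2 normalised CPM at D22 (median 12.1) and between 2.1 and 5.16 at D25 (median 3.84) (log2 change -1.67 ± 0.28 SE, adjusted p = 0.0002), with a small overlap. Both rises, Neurod2 and Neurod6, are also markers of cortical neurons and were highest in D25 organoid 1 and lowest in organoid 2 at 41.7 and 1.6 normalised CPM for Neurod2. Their mean levels were 9.24 and 40.0 normalised CPM at D20, and 1.34 and 3.41 at D22. Without D25 organoids 1 and 6, 3 members of this list were lower and 0 higher, 3 were lower without D22 organoid 4, D25 organoid 4 or D25 organoid 6 alone, and 0 higher without D22 organoid 1 or D25 organoid 1 alone. Of 12 genes for amacrine transmitters and calcium binding, 1 was called, namely Npy (2.41, adjusted p = 0.00299), and 0 without D25 organoid 1, while the log2 difference was 0.34 (adjusted p = 0.169) for Slc6a9, the glycine transporter, and 0.44 (adjusted p = 0.391) for Calb2. Among 13 ganglion cell genes, Sncg, gamma-synuclein, fell by 1.57 on the log2 scale (18.1 to 52.5, median 38.6 normalised CPM at D22, 7.64 to 17.9, median 12.8 at D25, no overlap), and Gap43, a growth cone protein, rose by 1.47 (adjusted p = 0.00993). Gap43 was at 339.7 normalised CPM in D25 organoid 1 and at 56.8 in organoid 2. It was the only rise of its list, and its call was lost with annotated genes alone in the fit and without any one of 10 of the 12 organoids.

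Müller glia genes were called higher more often than lower. Of 22 tested, 8 were higher and 2 lower (median 0.68), and 8 and 1 were called without D25 organoids 1 and 6. Clu, clusterin, was between 7.6 and 17.5 normalised CPM at D22 (median 14.7) and between 25.6 and 64.0 at D25 (median 36.6) (log2 change 1.56 ± 0.25 SE, adjusted p = 0.000111), with the D25 maximum in organoid 2. Cav1, caveolin, was between 0.878 and 2.33 normalised CPM at D22 (median 1.61) and between 5.86 and 10.9 at D25 (median 7.22) (log2 change 2.27 ± 0.28 SE, adjusted p = 3.95e-06). Slc1a3, the glial glutamate transporter, was between 74.9 and 127 normalised CPM at D22 (median 90.8) and between 149.6 and 268 at D25 (median 200.2) (log2 change 1.07 ± 0.19 SE, adjusted p = 0.000381). No overlap was seen for these 3. The members that fell, Sox9 and Dkk3, are also expressed in progenitors, and Sox9 was between 43.5 and 80.8 normalised CPM at D22 (median 51.9) and between 24.9 and 32.1 at D25 (median 26.9) (log2 change -1.10 ± 0.20 SE, adjusted p = 0.000377). The log2 difference was 0.15 (adjusted p = 0.568) for Glul, glutamine synthetase, and 0.69 (adjusted p = 0.0233) for Rlbp1, the retinaldehyde-binding protein, which both missed the threshold.

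Genes linked to reactive gliosis were called higher in 3 of 13 cases, beside 7.33% of all tested genes. Fgf2, a growth factor, was between 1.22 and 7.29 normalised CPM at D22 (median 1.99) and between 13.2 and 22.0 at D25 (median 14.4) (log2 change 2.28 ± 0.29 SE, adjusted p = 6.54e-06). Stat3, a transcription factor downstream of cytokine receptors, was between 35.8 and 44.6 normalised CPM at D22 (median 36.8) and between 57.1 and 66.2 at D25 (median 61.6) (log2 change 0.70 ± 0.11 SE, adjusted p = 5.49e-05). Osmr, the oncostatin M receptor, had 0 to 9 counts in the D22 organoids and 13 to 46 in the D25 organoids (adjusted p = 0.000256). Its mean was 0.131 and 0.146 normalised CPM at D20 and D22, and 1.77 and 9.51 at D25 and D30. Osmr thus passed the filter on low counts only through the later days, so that it could hardly have been called lower. The days did not overlap for any of the 3. Gfap, the filament protein of reactive glia, was between 0.821 and 44.2 normalised CPM at D22 (median 4.08) and between 25.2 and 141 at D25 (median 90.6), with overlapping days and a log2 difference of 2.85 (adjusted p = 0.0145) that missed the threshold.

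Part of the Notch pathway and of the proneural factors it controls fell. Of 30 Notch pathway genes, 8 were lower and 1 higher (median -0.33). With annotated genes alone in the fit, 12 were lower. The count was 6 without D25 organoids 1 and 6. The summed level of the list was between 1350 and 1700 normalised CPM at D22, with the least in organoids 2 and 3, and between 1160 and 1290 at D25. Among the ligands, Dll1 (ENSMUSG00000014773, chr17:15367354-15376872, GRCm38) was between 39.6 and 97.3 normalised CPM at D22 (median 68.6) and between 22.9 and 31.9 at D25 (median 27.5) (log2 change -1.29 ± 0.17 SE, adjusted p = 1.41e-05), without overlap. Jag1, another ligand, moved the opposite way at between 2.66 and 5.30 normalised CPM at D22 (median 4.27) and between 8.14 and 12.5 at D25 (median 9.97) (log2 change 1.25 ± 0.20 SE, adjusted p = 0.00012), and its days were separate. The receptor Notch1 was between 88.3 and 98.5 normalised CPM at D22 (median 95.2) and between 43.3 and 71.7 at D25 (median 50.8) (log2 change -0.82 ± 0.13 SE, adjusted p = 7.05e-05), again without overlap. Of the transcriptional targets, Hes5 (ENSMUSG00000048001, chr4:154960923-154962371) was between 10.8 and 33.5 normalised CPM at D22 (median 20.4) and between 4.18 and 10.7 at D25 (median 6.93) (log2 change -1.59 ± 0.28 SE, adjusted p = 0.000342). The highest D25 organoid lay just below the lowest D22 organoid. The log2 difference was -0.18 (adjusted p = 0.145) for the ubiquitin ligase Mib1, 0.09 (adjusted p = 0.607) for the protease Adam10 and 0.08 (adjusted p = 0.756) for the regulator Dtx4, which all missed the threshold.

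The promoter of Hes5 from RefSeq (GRCm38.p6) is shown because it is the textbook target of the pathway. The letters TGGGAA on either strand (TTCCCA on the other), the core bound by RBPJ, are in capitals and lie 226 and 82 bases upstream of the start. They were present in 6 of 23 Notch pathway genes with a promoter (26.1%) and in 26.7% of all tested genes with one, so that this core was about as common in both.
Hes5 (chr4:154960673-154960972, plus strand): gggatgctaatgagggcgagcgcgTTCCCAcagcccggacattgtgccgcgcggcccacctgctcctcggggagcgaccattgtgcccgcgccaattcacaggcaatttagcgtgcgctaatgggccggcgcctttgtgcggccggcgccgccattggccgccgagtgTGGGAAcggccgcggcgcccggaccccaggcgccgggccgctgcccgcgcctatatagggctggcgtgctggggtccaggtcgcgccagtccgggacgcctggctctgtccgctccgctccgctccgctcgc

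Of 16 genes of neurogenic commitment, 6 were lower and 1 higher, and 4 and 0 without D25 organoids 1 and 6. Neurog1, a proneural factor, was between 1.71 and 4.99 normalised CPM at D22 (median 4.04) and between 0.232 and 1.25 at D25 (median 0.305), a log2 change of -2.98 ± 0.51 (SE, adjusted p = 0.000229) at few counts. The rise was that of Dcx, a microtubule protein of young neurons, which was between 17.9 and 44.7 normalised CPM at D22 (median 24.7) and between 35.4 and 449 at D25 (median 125) and followed the cortex markers among the D25 organoids (449 in organoid 1, 35.4 in organoid 2). It was not called without organoids 1 and 6. The mean level of Dcx was 73.8 normalised CPM at D20 and 28.4 at D22. Progenitor genes were lower in 6 of 19 cases and higher in 0, but only 1 was called without D25 organoids 1 and 6, and 3 without D22 organoid 6 or without D25 organoid 4. Six3, an early eye field factor, was between 37.3 and 49.1 normalised CPM at D22 (median 41.9) and between 19.5 and 34.6 at D25 (median 21.9) (log2 change -0.80 ± 0.15 SE, adjusted p = 0.000549), and Fzd5, a Wnt receptor of the eye field, changed by -0.66 (adjusted p = 0.0012). Rax and Six6 did not pass with log2 differences of -0.29 (adjusted p = 0.173) and -0.43 (adjusted p = 0.0433).

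The cell cycle machinery itself showed few calls. Of 41 DNA replication genes, 1 was higher, the single-strand binding protein Rpa1 (23.7 to 33.8, median 27.4 normalised CPM at D22, 39.5 to 54.8, median 45.8 at D25, log2 change 0.72 ± 0.12 SE, adjusted p = 0.000125), and 0 were lower. None of 40 mitosis genes was called by edgeR, with 0 higher and 6 lower at an unadjusted p below 0.05, a median of -0.23 and 33 members below 0. DESeq2 called 0 higher and 0 lower. Mki67, a marker of cycling cells, was between 171 and 400.1 normalised CPM at D22 (median 218) and between 58.9 and 323 at D25 (median 197), so that the days overlapped widely. Its lowest value, 58.9, was again in D25 organoid 2. Among 24 cyclins and cell cycle regulators, the falls were E2f1 (12.9 to 33.1, median 28.9 and 7.25 to 11.8, median 10.2, log2 change -1.39 ± 0.18 SE, adjusted p = 1.11e-05, no overlap), Ccnd1, the cyclin of retinal progenitors (-0.86, adjusted p = 0.000505), and the brake Cdkn1a (-1.0, adjusted p = 0.00428). Ccnd2 rose by 2.59 (adjusted p = 0.00044) and reached 172 normalised CPM in D25 organoid 1, beside 17.4 in organoid 2, which was within the D22 range.

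Chromatin regulators were lower in 4 of 25 cases and higher in 0, beside 2.92% and 7.33% of all tested genes. Of these regulators, 2 were lower without D25 organoids 1 and 6, 2 without D22 organoid 5 or D25 organoid 4, and 7 with annotated genes alone in the fit. Ezh2, which methylates histone H3 in a repressive complex, was between 276 and 326 normalised CPM at D22 (median 291) and between 163 and 208 at D25 (median 190.4) (log2 change -0.68 ± 0.08 SE, adjusted p = 7.86e-07). Its partner Suz12 was between 159 and 210.4 normalised CPM at D22 (median 186) and between 133 and 156 at D25 (median 142) (log2 change -0.36 ± 0.09 SE, adjusted p = 0.00524). Neither overlapped between the days. Hmga1 changed by -0.69 (adjusted p = 0.00194) and Smarcc1, a remodelling subunit, by -0.38 (adjusted p = 0.0041).

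Ribosomal protein genes were called only lower, and genes of respiration only higher. Of 82 cytosolic ribosomal protein genes, 40 were lower and 0 higher (median -0.50). This count was 60 with annotated genes alone in the fit, 20 without D22 organoid 6 and 9 without D25 organoids 1 and 6. Their summed level was between 16200 and 30700 normalised CPM at D22, where organoid 6 stood above the other 5, and between 11900 and 17300 at D25, which overlapped. Rpl5 was between 979 and 2427 normalised CPM at D22 (median 1417) and between 636 and 949 at D25 (median 726) (log2 change -0.97 ± 0.14 SE, adjusted p = 3.49e-05) and Rps23 between 256 and 484 normalised CPM at D22 (median 331) and between 165 and 255 at D25 (median 196) (log2 change -0.76 ± 0.13 SE, adjusted p = 0.000229). Both were separate between the days. These families have many processed copies in the genome, among which reads may be split. None of 76 mitochondrial ribosomal protein genes was called by edgeR (median 0.14), with 14 higher and 3 lower at an unadjusted p below 0.05, and DESeq2 called 0 and 0.

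Nuclear genes of oxidative phosphorylation were higher in 19 of 77 cases and lower in 0 (median 0.33), and 17 were higher without D25 organoids 1 and 6. The count was 15 with annotated genes alone in the fit and 12 without D22 organoid 1 or without D25 organoid 5. Atp5b, a catalytic subunit of ATP synthase, was between 416 and 559.7 normalised CPM at D22 (median 464) and between 628 and 703 at D25 (median 676) (log2 change 0.50 ± 0.07 SE, adjusted p = 5.22e-05), and Ndufv1, of complex I, was between 66.0 and 91.5 normalised CPM at D22 (median 74.3) and between 105 and 124 at D25 (median 119) (log2 change 0.60 ± 0.09 SE, adjusted p = 7.83e-05). Every D25 organoid exceeded every D22 organoid for both genes. Sdha of complex II changed by 0.41 (adjusted p = 0.000456). The 13 mitochondrially encoded protein genes were listed at 0 in all 12 organoids, so that they could not be compared. Of 27 genes of glycolysis and hypoxia, 2 were higher and 1 lower, close to the shares of 7.33% and 2.92% over all tested genes. In this list 20 genes lay below 0 and the median was -0.28. With annotated genes alone in the fit 1 was higher and 4 lower, and without D25 organoids 1 and 6 the counts were 2 and 0. Hk1, the first enzyme of glycolysis, was between 177 and 209.8 normalised CPM at D22 (median 194) and between 265 and 382 at D25 (median 319.9) (log2 change 0.73 ± 0.10 SE, adjusted p = 1.85e-05), without overlap, and Eno2, the neuronal enolase, changed by 0.45 (adjusted p = 0.00246). Pdk1, which holds pyruvate back from mitochondria, was the fall (-0.83, adjusted p = 0.00526), while Pkm and Ldha did not pass with log2 differences of -0.13 (adjusted p = 0.51) and -0.11 (adjusted p = 0.485). Of 32 genes of cholesterol and fatty acid synthesis, 2 were higher, beside 7.33% of all tested genes, and 1 without D25 organoid 1. Among them Acaca, the first committed enzyme of fatty acid synthesis, rose by 0.71 (adjusted p = 0.000237).

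Retinoic acid genes were called in 2 rises and 3 falls of 17, beside 7.33% and 2.92% of all tested genes. With annotated genes alone in the fit or without any one of 7 organoids, 1 rise was left. Cyp26b1 (ENSMUSG00000063415, chr6:84571414-84593908, GRCm38), an enzyme that degrades retinoic acid, was between 122 and 220.3 normalised CPM at D22 (median 158) and between 27.1 and 64.1 at D25 (median 44.5) (log2 change -1.88 ± 0.23 SE, adjusted p = 3.30e-06), and all D25 organoids were lower. Rarb, a retinoic acid receptor, was between 34.0 and 40.2 normalised CPM at D22 (median 35.2) and between 17.0 and 24.7 at D25 (median 20.8) (log2 change -0.80 ± 0.15 SE, adjusted p = 0.000591), also without overlap. Crabp2, which carries retinoic acid to the nucleus, changed by -1.52 (adjusted p = 0.000242). The rises were Dhrs3, which returns retinal to retinol (35.4 to 49.7, median 42.8 normalised CPM at D22, 59.9 to 69.6, median 63.0 at D25, 0.61 ± 0.13 SE, adjusted p = 0.00169), and Rdh10, which acts in the other direction (0.50, adjusted p = 0.00502). In the hedgehog pathway, 2 of 11 genes were higher and 0 lower (median -0.11), beside the same shares of all tested genes. But with annotated genes alone in the fit 2 were higher and 3 lower, and DESeq2 called 2 and 2. Boc, a coreceptor, was between 0.540 and 2.30 normalised CPM at D22 (median 1.14) and between 3.32 and 9.21 at D25 (median 4.07) (log2 change 1.91 ± 0.36 SE, adjusted p = 0.000576). Shh itself had 0 or 1 count in each D22 organoid and between 0 and 101 counts in the D25 organoids, with the most in organoid 1 and 0 in organoid 2 (adjusted p = 0.000117). With 0 or 1 count at D22, Shh passed the filter on low counts only through other days. The receptor Ptch1 and the effector Gli3 were not called with log2 differences of 0.06 (adjusted p = 0.793) and -0.81 (adjusted p = 0.0132).

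Part of the synaptic and channel genes beyond the ribbon synapse rose, to a varying degree among the D25 organoids. Of 25 genes of vesicle fusion, 9 were higher and 0 lower (median 0.59), and 6 without D25 organoids 1 and 6. Nsf, the ATPase that recycles SNARE complexes, was between 50.6 and 85.7 normalised CPM at D22 (median 65.6) and between 119 and 131 at D25 (median 123) (log2 change 0.90 ± 0.11 SE, adjusted p = 2.79e-06), and Syt1, the calcium sensor of release, was between 204 and 384 normalised CPM at D22 (median 303) and between 469.6 and 546 at D25 (median 491) (log2 change 0.75 ± 0.11 SE, adjusted p = 3.49e-05). In both, the D25 organoids lay close together and above all D22 organoids, with 508 normalised CPM of Syt1 in organoid 2 and 546 in organoid 1. Dlg4, the scaffold PSD-95, was alike at between 109 and 182 normalised CPM at D22 (median 126) and between 237 and 262 at D25 (median 252) (log2 change 0.89 ± 0.14 SE, adjusted p = 7.66e-05).

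Transmitter receptors and scaffolds were higher in 14 of 53 cases, synaptic adhesion genes in 8 of 39, potassium channels in 11 of 64, sodium, calcium and HCN channels in 10 of 37 and axon guidance genes in 8 of 65. The falls numbered 0, 1, 1, 1 and 2. Without D25 organoids 1 and 6 the rises were 6, 2, 4, 4 and 3 in the same order, against a background that fell from 7.33% to 3.77%. Without D25 organoid 1 alone they were 9, 4, 6, 5 and 3. The last of these counts was also reached without D22 organoid 1, 4 or 5 or without D25 organoid 4, and the one before it without D22 organoid 1 or 5. Kcnj14, an inward rectifier, was even among the D25 organoids at between 0.552 and 3.31 normalised CPM at D22 (median 1.41) and between 10.1 and 13.0 at D25 (median 11.3) (log2 change 2.84 ± 0.29 SE, adjusted p = 2.71e-07). Kcnma1, the large-conductance calcium-activated channel, was between 6.99 and 15.8 normalised CPM at D22 (median 10.2) and between 22.1 and 39.3 at D25 (median 31.0) (log2 change 1.58 ± 0.17 SE, adjusted p = 7.38e-07), and Cacnb2, a calcium channel subunit, was between 27.3 and 63.4 normalised CPM at D22 (median 39.0) and between 103 and 143 at D25 (median 114) (log2 change 1.41 ± 0.17 SE, adjusted p = 2.59e-06). The days were separate for all 3.

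Other members were uneven among the D25 organoids. Cntnap5a, an adhesion protein of the neurexin family, was between 0.184 and 1.26 normalised CPM at D22 (median 0.843) and between 2.09 and 43.2 at D25 (median 8.14) (log2 change 4.15 ± 0.69 SE, adjusted p = 0.000186), with 43.2 in D25 organoid 1, 11.7 in organoid 6 and 2.09 in organoid 2. Plxna4, a semaphorin receptor, was between 3.65 and 7.61 normalised CPM at D22 (median 5.83) and between 13.2 and 110.4 at D25 (median 34.1) (log2 change 3.02 ± 0.51 SE, adjusted p = 0.00021), and its level was 110.4 in organoid 1 and 13.2 in organoid 2. For both genes even the lowest D25 organoid exceeded all D22 organoids. Opcml, an adhesion protein of neurons, and Sema3c, a secreted guidance cue, were highest in D25 organoids 1 and 4, respectively, lowest in organoid 2 at 5.23 and 7.39 normalised CPM and overlapped with D22 with log2 changes of 3.50 (adjusted p = 0.00127) and 3.85 (adjusted p = 0.00154). Whether these rises came from retinal neurons or from other neurons was not tested.

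**Figure D4:**
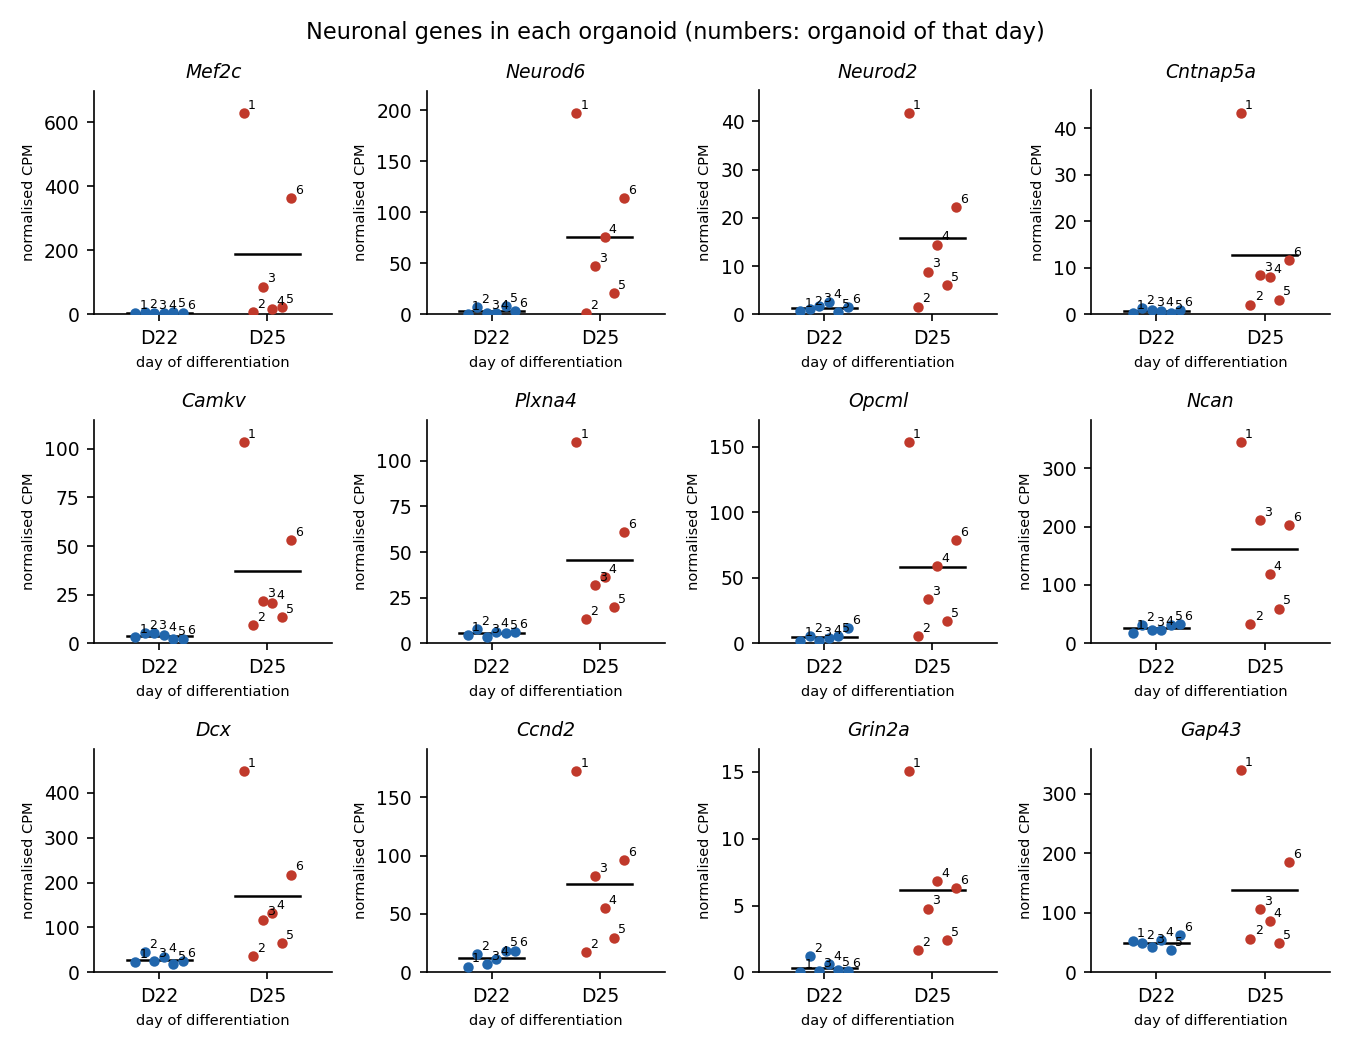
Normalised CPM of 12 neuronal genes in each organoid, D22 in blue and D25 in red, with a line at the mean and the organoid's number beside each point. D25 organoid 1 is the highest in every panel, with 628 normalised CPM of Mef2c. D25 organoid 2 lies above every D22 organoid for Cntnap5a, Camkv, Plxna4 and Ncan, and at or near the D22 range otherwise.

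The 15 largest rises and 15 largest falls among well-expressed genes without overlap between the days include many already named. Further rises were those of Camkv, a calmodulin kinase-like protein of synapses (between 2.37 and 5.23 normalised CPM at D22, median 3.65 and between 9.27 and 104 at D25, median 21.3, log2 change 3.30 ± 0.57 SE, adjusted p = 0.000271), Clstn2, a synaptic adhesion protein (3.15, adjusted p = 0.00169), Rgs7bp, which anchors regulators of G protein signalling (3.08, adjusted p = 7.83e-05), and Slc16a7, a monocarboxylate transporter (3.03, adjusted p = 0.000126). All 4 were highest in D25 organoid 1. Sparcl1, a secreted matrix protein, was between 2.67 and 45.8 normalised CPM at D22 (median 11.7) and between 56.5 and 173 at D25 (median 124) (log2 change 2.71 ± 0.54 SE, adjusted p = 0.00117). Ncan, a brain proteoglycan, was between 18.1 and 33.1 normalised CPM at D22 (median 27.7) and between 33.2 and 346 at D25 (median 161) (log2 change 2.59 ± 0.57 SE, adjusted p = 0.0027), with the lowest D25 value in organoid 2 just above the D22 maximum. Tnc, tenascin C, was more even at between 4.72 and 12.6 normalised CPM at D22 (median 8.82) and between 34.0 and 69.3 at D25 (median 52.0) (log2 change 2.56 ± 0.46 SE, adjusted p = 0.000384). Gpr152, an orphan receptor, and Fam49a changed by 2.78 (adjusted p = 0.000508) and 2.58 (adjusted p = 0.000568).

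The largest of these falls was that of Mybpc1, a myosin-binding protein, at between 4.12 and 34.9 normalised CPM at D22 (median 15.6) and between 0.498 and 3.0 at D25 (median 1.31) (log2 change -3.52 ± 0.47 SE, adjusted p = 1.41e-05). The skeletal muscle markers, whose lowest log2 change was also -3.52, had 1 of 5 tested genes called lower. Their summed level fell without overlap, and their part in this fall was not tested. Mybl1, a MYB family transcription factor, was between 200.3 and 405 normalised CPM at D22 (median 320.5) and between 82.7 and 143 at D25 (median 109) (log2 change -1.55 ± 0.14 SE, adjusted p = 7.18e-08). All D25 organoids were lower for Mybpc1 and Mybl1, which the choice of genes without overlap required. Arhgef37, an exchange factor, was between 13.8 and 34.0 normalised CPM at D22 (median 27.7) and between 6.16 and 10.1 at D25 (median 6.76) (log2 change -1.84 ± 0.20 SE, adjusted p = 7.01e-07), and Abcb4, a phospholipid transporter, was between 10.6 and 24.9 normalised CPM at D22 (median 21.2) and between 3.24 and 7.76 at D25 (median 5.78) (log2 change -1.78 ± 0.21 SE, adjusted p = 2.89e-06). Slc6a2, the noradrenaline transporter, fell by 1.62 on the log2 scale, Epha2 by 1.44, Macrod1 by 1.35 and Epha8 by 1.28.

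The D22 to D25 step was then compared with its neighbours, which share the D22 or D25 organoids with it and last 2 and 5 days in place of 3, so that the contrast sets whole log2 changes over steps of unequal length side by side, and a steady rate per day also gives a difference. In 4 of 16253 genes (0.0246%) the change from D22 to D25 differed from that from D20 to D22. Lcorl, a nuclear receptor corepressor-like protein, was 551 ± 58.9 (SD, n = 6), 613 ± 37.8, 317 ± 33.8 and 158 ± 26.6 normalised CPM on the 4 days in order, and the later change minus the earlier one was, on the log2 scale, -1.10 ± 0.16 (SE, adjusted p = 0.00486). Ccdc136 had the same form, with 349 ± 56.3, 506 ± 94.8, 263 ± 47.0 and 75.2 ± 16.9 (difference -1.47 ± 0.24 SE, adjusted p = 0.0069). Timp2, an inhibitor of matrix metalloproteinases, was lowest at D22 and rose after it, with 10.9 ± 1.75, 6.99 ± 2.01, 20.1 ± 5.56 and 43.5 ± 13.5 (difference 2.18 ± 0.38 SE, adjusted p = 0.00981). Sox21, a transcription factor, was the remaining gene, with 0 or 1 count per D22 organoid and 3 to 53 at D25 (adjusted p = 0.00981). No gene was called here without D22 organoid 1, 4 or 5, or without D25 organoid 4 or 6, and 16 were called without D25 organoid 2.

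In 15 genes (0.0923%) the change from D22 to D25 differed from that from D25 to D30. Foxred2, an oxidoreductase of the endoplasmic reticulum, peaked at D25, with 35.0 ± 9.10, 67.1 ± 5.83 and 36.9 ± 7.45 normalised CPM from D22 to D30 (difference 1.80 ± 0.24 SE, adjusted p = 0.0004). Inpp5d, a lipid phosphatase, did so too, with 7.48 ± 4.20, 22.3 ± 4.82 and 10.9 ± 4.02 (difference 2.61 ± 0.44 SE, adjusted p = 0.00687). Jarid2, a partner of the repressive complex of Ezh2, was 305 ± 44.5, 379 ± 18.9 and 235 ± 28.6 (difference 1.01 ± 0.15 SE, adjusted p = 0.00142), and Insm1, a factor of neuronal differentiation, was 56.3 ± 14.6, 77.2 ± 12 and 40.9 ± 5.30 (difference 1.37 ± 0.24 SE, adjusted p = 0.00797). For Jarid2 and Insm1 the D22 to D25 change alone was not called. Ece1, which processes endothelins, and the ephrin receptor Epha8 fell by more from D25 to D30 than from D22 to D25, with 120.2 ± 30.6 and 24.5 ± 4.50 normalised CPM for Ece1 at D25 and D30 (difference 1.84 ± 0.25 SE, adjusted p = 0.0004) and 44.4 ± 21 and 4.64 ± 1.56 for Epha8 (difference 1.99 ± 0.35 SE, adjusted p = 0.00948). St18, Pdzrn4, Prex2 and D16Ertd472e were at their lowest at D25 and higher at D30, as for St18 with 36.0 ± 8.25, 21.7 ± 3.58 and 37.4 ± 5.90 (difference -1.52 ± 0.27 SE, adjusted p = 0.00982). The other genes called were Mtus2, Shisa2, Rd3l, AA623943 and C230057A21Rik, all higher at D25 than at D30.

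**Figure D5:**
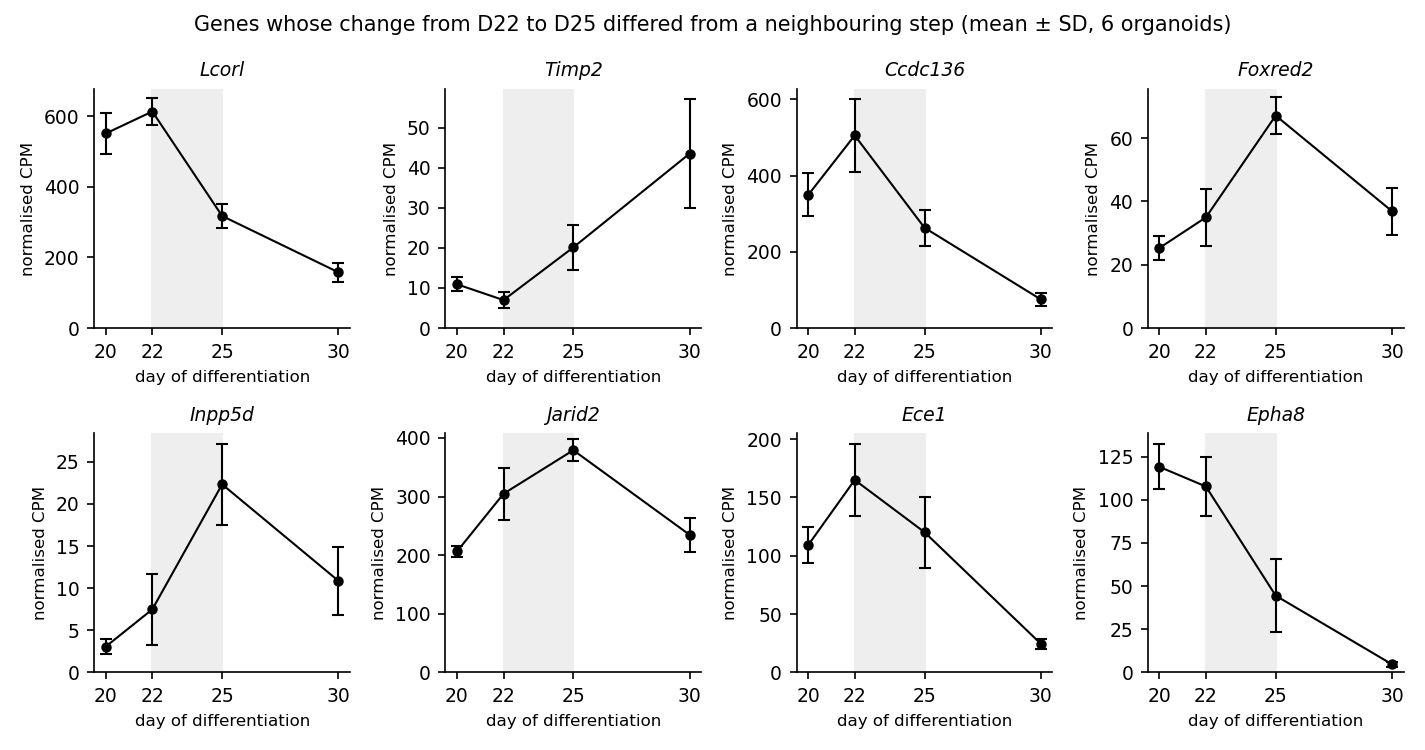
Mean ± SD of normalised CPM over 6 organoids on each of the 4 days for 8 genes whose D22 to D25 change (shaded) differed from a neighbouring step. Lcorl and Ccdc136 turn down after D22, Timp2 turns up, and Foxred2, Inpp5d and Jarid2 peak at D25.

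Several lists showed no call. None of 20 immediate early genes, 23 genes of stress and the unfolded protein response and 11 interferon response genes was called by edgeR. At an unadjusted p below 0.05, 2, 6 and 4 were higher and 1, 2 and 0 lower. DESeq2 called 1, 1 and 2 higher and 0, 0 and 0 lower. Jun was between 116 and 149.7 normalised CPM at D22 (median 128) and between 117 and 153 at D25 (median 128) and Hspa5, the main chaperone of the endoplasmic reticulum, between 488 and 610.5 normalised CPM at D22 (median 517) and between 569 and 882 at D25 (median 615), both with overlapping days. Of 20 circadian clock genes, 1 was called, which is Rorb, and the log2 difference of Clock was 0.00 (adjusted p = 0.989).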

How the data were processed

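RNA of individual organoids was depleted of ribosomal RNA and sequenced from strand-specific libraries. Per the submitters' processing notes, bcl2fastq 2.20, cutadapt 1.5, FastQC 0.11.2, HISAT2, SAMtools 1.1, StringTie 1.3.3 and HTSeq 0.6.1 were used. The deposited values are whole-number read counts per gene, made by the authors with HTSeq against GRCm38 and including loci that they assembled with StringTie. The strand setting of the counting is not given in the sources used here, so that reads of overlapping or antisense genes may be shared. The 37 mitochondrially encoded genes are listed at 0.

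The counts of all 24 organoids were normalised by TMM and tested in 1 fit with edgeR 4.0.16 (R 4.3.3) by the quasi-likelihood test, with a mean of at least 10 normalised counts required and Benjamini-Hochberg adjustment over all 46949 tested features. Genes were called at an adjusted p below 0.01. The values marked SE were not estimated directly. They are the size of the log2 change divided by the square root of the F statistic of its test. Rows of HTSeq for reads without a feature were left out of library sizes. Levels are given as normalised CPM. Symbols, positions and biotypes came from the GENCODE M21 annotation of GRCm38. The organoids of each day came from 1 experiment, with 6 per day.

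Genes were named by a rule: the 15 largest non-overlapping rises and the 15 largest falls with a mean of at least 100 normalised counts, up to 4 called members of each gene list in each direction with the smallest adjusted p, up to 4 uncalled members with the highest level, and called genes of the contrasts between steps. Cngb1, Gucy2e and Sag were named for their promoters after their values were seen, as were the remaining called genes of the contrasts between steps. The choice to leave out D25 organoids 1 and 6 was also made after seeing the data. The members and lists were chosen with earlier results of these data known. The listed symbols BC027072 and Frmpd2 were not found.

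Simulated counts for 46949 features at the observed dispersions, with 200 features changed between D22 and D25, gave calls for 28% of 1.5-fold rises, 60% of 2-fold rises, 96% of 4-fold rises and 70.2% of 2-fold falls. The changed features were annotated genes with a mean of at least 10 counts at D22, so that these rates do not cover genes with fewer counts. Simulated D20 and D30 levels equalled those of D22, and the rate of falls is over the 47 of 50 that were tested. Replicate numbers were checked for pairing, and deviations of organoids with the same number correlated between -0.035 and 0.0827, so that they do not pair. Alternatives were DESeq2 1.42.0, its size factors in edgeR, annotated genes alone, other filters, D22 and D25 organoids alone, a test against a 1.5-fold change, a replicate block and leaving out each organoid in turn. Figures were drawn with matplotlib 3.10.9. Some genes that the rule names are not reported here. Microscopy was not analysed here.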

Additional observations from a re-analysis of the deposited data

Results flagged for a closer look

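In 31 of 432 sets of 6 organoids examined, the highest or lowest organoid lay farther from the rest than the spread of the others would give, by a test that flags about 1 set in 20 by chance. D25 organoid 1 was that organoid in 10 of them. In D25 organoid 1, normalised CPM reached 52.5 for Prkcb, 11.5 for Npy, 22.0 for Fgf2, 9.21 for Boc and 43.2 for Cntnap5a. Its summed levels were 447 for ON bipolar signalling, 4100 for cholesterol and fatty acid synthesis, 2290 for transmitter receptors and scaffolds, 3000.0 for synaptic adhesion and 1710 for sodium, calcium and HCN channels. In D25 organoid 2, Hspa5 was at 881 normalised CPM, stress and unfolded protein response genes summed to 1990 normalised CPM, and 8.93% of reads were not aligned. D25 organoid 3 stood out for Arhgef37 at 10.1 normalised CPM and for Hox genes at a sum of 26.9. In D25 organoid 5, Slc6a9 was at 58.7, Neurog1 at 1.25 and Shisa2 at 105 normalised CPM, and 29.6 M alignments were not unique. The lens marker sum of D25 organoid 4 was 2.60 normalised CPM.

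Among the D22 organoids, organoid 6 was the highest for Gnat1 at 2.53, Osmr at 0.599, Gfap at 44.2 and Col1a2 at 6.72 normalised CPM. Pde6c was at 42.0 normalised CPM in organoid 1, Npy at 3.91 and Pdzrn4 (the lowest) at 15.2 in organoid 2, Stat3 at 44.6 and Shh at 0.0675 in organoid 3, and Smarcc1 at 218 in organoid 5. The microglia and leukocyte marker sum of organoid 5 was low, at 0.0719 normalised CPM. This sum and the Shh value lay below the level of 3 counts, which is at least 0.166 normalised CPM. Single reads can set such values, so that both flags say little about these organoids.

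The change from D22 to D25 differed from a neighbouring step in the tests of the difference described above. The change after D22 minus that before it was -1.10 on the log2 scale for Lcorl, -1.47 for Ccdc136, 2.18 for Timp2 and 10 for Sox21, whose value depends on the prior count since its D22 organoids hold 0 or 1 count. The change before D25 minus that after it was 1.80 for Foxred2, 2.61 for Inpp5d, 1.01 for Jarid2, 1.37 for Insm1, 1.84 for Ece1, 1.99 for Epha8 and -1.52 for St18. It was 1.22 for Mtus2, 1.57 for Shisa2, 1.56 for Rd3l, 4.16 for AA623943, 1.93 for C230057A21Rik, -1.80 for Pdzrn4, -2.98 for Prex2 and -2.13 for D16Ertd472e.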

How the results depend on the processing

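All 114 called genes named in the text kept their direction under the alternatives run for single genes, and 87 of them stayed past the threshold in each. DESeq2 called 1705 genes higher and 563 lower, and the D22 and D25 organoids alone gave 1300 and 446. The test against a 1.5-fold change called 132 higher and 24 lower, and annotated genes alone gave 970 lower. Leaving out D25 organoids 1 and 6, chosen after seeing the data, left 613 higher and 167 lower. Leaving out 1 organoid at a time gave 739 to 1313 genes higher, with the least without D22 organoid 1, and 285 to 560 lower, with 285 without D22 organoid 6, 296 without D25 organoid 4 and 302 without D25 organoid 6. Of genes whose change after D22 differed from that before it, 4 were called in the main test, 2 with annotated genes alone, 1 with filterByExpr, 59 without a filter on low counts, 0 without D25 organoids 1 and 6, and 0 to 16 with 1 organoid left out. Of genes whose change before D25 differed from that after it, 15 were called, 5 with annotated genes alone, 30 without a filter, 6 without D25 organoids 1 and 6, and 4 to 27 with 1 organoid left out. The replicate block, on numbers that do not pair the organoids, gave 1085 higher, 405 lower, 0 and 12 genes for these contrasts. The cause was not tested for any of these shifts. Depth limits the genes near 3 counts per organoid, such as Shh, Sox21 and Osmr at D22. These passed the filter on low counts, which spans all 24 organoids, through days on which they were higher.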

Other observations

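Among genes of the extracellular matrix, 6 of 49 collagens, laminins and basement membrane genes were called higher and 2 lower, beside 7.33% and 2.92% of all tested genes. Without D25 organoids 1 and 6, 6 were higher and 0 lower. Col9a1, a fibril-associated collagen, was between 22.4 and 55.8 normalised CPM at D22 (median 29.7) and between 54.5 and 101 at D25 (median 76.5) (log2 change 1.09 ± 0.21 SE, adjusted p = 0.000912), and Sparc, a matricellular protein, was between 151 and 188 normalised CPM at D22 (median 173) and between 207 and 307 at D25 (median 283) (log2 change 0.66 ± 0.14 SE, adjusted p = 0.00202). Sparc did not overlap between the days, Col9a1 did. Col2a1, the main collagen of the vitreous, was between 31.1 and 47.5 normalised CPM at D22 (median 36.6) and between 14.3 and 33.2 at D25 (median 19.3) (log2 change -0.85 ± 0.18 SE, adjusted p = 0.00211). Col1a2, which is also one of the mesenchyme markers, was between 1.04 and 6.72 normalised CPM at D22 (median 2.59) and between 2.87 and 27.3 at D25 (median 11.8) (log2 change 2.26 ± 0.49 SE, adjusted p = 0.00266). Without D25 organoid 4, the organoid with the highest mesenchyme marker level, 2 matrix genes were called higher. The part of the mesenchyme markers in this was not tested.

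Of 50 canonical histone genes, 1 was called higher, Hist1h2bc (0.61, adjusted p = 0.00839), and 0 were called lower, while 38 lay below 0 and the median log2 change was -0.19. The call was lost with annotated genes alone in the fit, which gave 0 higher and 1 lower, without D25 organoids 1 and 6, and without any one of 7 organoids. The genes that rose had a median length of 42.9 kb between the ends of the annotated gene, those that fell 23.1 kb, and all tested genes 19.5 kb. Protein-coding genes made up 1148 of the 1191 rises and 401 of the 474 falls.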
